A study of Mus musculus with 8 samples.

Results

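The SWI/SNF, ISWI, CHD and INO80 remodellers are 39 genes for the motor proteins and subunits of the complexes that move nucleosomes. They were chosen by name, and each is measured by every probe set (a group of short probes for 1 transcript) to which the platform annotation gives a member as the single gene. That gave 106 probe sets among the 45037 probe sets for transcripts, and 39 of the 18193 genes named in this way. The set holds 18 SWI/SNF genes with 41 probe sets, 6 ISWI genes with 19, 7 CHD genes with 19, 5 genes of the INO80 family with 15, and 3 further SNF2 genes (Smarcad1, Hells and Atrx) with 12.

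The mice were female C57BL/6J, aged 6-8 weeks in the labels, which the methods give as the age at purchase, before acclimation and restraint. The mice of the RST group (restraint stress, n = 4) spent 6 h per day in a ventilated tube, and the control mice (n = 4) had no food or water during those hours and were otherwise left alone. Whole blood was taken on Day 7, and each mouse had its own Affymetrix mouse genome array, on which the deposited log2 level of a probe set was compared between the groups. The mice lived 5 to a cage and whole cages were assigned to a group, so a group's mice may share a cage, and cage and group cannot be told apart. Neither group carried an engineered allele or received a drug in this experiment. The arrays measure all the RNA of blood, and fewer cells of a type and less RNA per cell cannot be told apart in them.

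Remodellers burn ATP to slide, evict or exchange nucleosomes, and so set which stretches of DNA can be read. Each complex is built on an ATPase of the SNF2 type, around which sit scaffold subunits and subunits that recognise modified histones. In blood formation the SWI/SNF complexes are known for their part in opening lineage genes, NuRD complexes with CHD3 or CHD4 for silencing them, and ATRX for keeping up alpha-globin expression in people.

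The tissue of the labels was checked against marker genes. Erythroid, platelet and leukocyte genes were all well represented, with mean log2 levels of 13.57 and 13.68 in control and RST mice for Alas2 (heme synthesis in red cell precursors) and 9.35 and 8.41 for Cd79a (B cell receptor). Some arrays stood apart. Over the 91 tested remodeller probe sets RST mouse 4 was the lowest of all mice in 59 (64.8%, against 41.5% of all tested probe sets). Control mouse 1 was the highest in 32 (35.2%, against 20.9%) and control mouse 2 in 33 (36.3%, against 22.5%), and the hybridization controls of these control mice averaged 11.93 and 11.90 against 12.35 to 12.74 on the other arrays. On the array of RST mouse 4 the upper quartile of all values was 4.50, against 5.06 to 5.37 on the others. Its median was 3.19, against 3.29 to 3.46. Over the tested probe sets, arrays correlated at 0.88 to 0.96 inside the groups and at 0.86 to 0.95 across them.

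Promoter sequence was at hand for 32 of the 39 genes, as 37 windows from 250 bases before to 50 after a RefSeq start on GRCm38.p6. No entry was matched for Chd1, Smarce1, Baz1a, Chd2, Chd3, Chd7 and Arid2. The windows of 5 genes are printed, 5′ to 3′ on the gene's own strand, because the results below turn on them: Pbrm1 had the only higher mean past the unadjusted threshold, while Smarcd2, Brd9, Ino80 and Atrx were lower in every RST mouse than in every control mouse. Capitals mark matches, on either strand, to CCNCNCCC (Kruppel-like factors), CCGGAAG (ETS factors) or the half-site of the glucocorticoid receptor, whose 1 match in these windows is in that of Ino80. Overlapping matches are run together, and the GATA motif had no match in these 5 windows. The Atrx window held no match to any of them. Brd9 has a pair of overlapping windows, of which the first is printed.
Pbrm1 (chr14:31018888-31019187, + strand): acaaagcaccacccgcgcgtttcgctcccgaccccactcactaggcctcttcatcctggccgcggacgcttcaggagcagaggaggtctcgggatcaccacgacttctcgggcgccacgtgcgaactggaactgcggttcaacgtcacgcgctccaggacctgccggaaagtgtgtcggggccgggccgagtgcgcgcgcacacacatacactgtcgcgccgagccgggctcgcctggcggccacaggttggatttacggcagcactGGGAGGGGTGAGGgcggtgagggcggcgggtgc
Smarcd2 (chr11:106267583-106267882, - strand): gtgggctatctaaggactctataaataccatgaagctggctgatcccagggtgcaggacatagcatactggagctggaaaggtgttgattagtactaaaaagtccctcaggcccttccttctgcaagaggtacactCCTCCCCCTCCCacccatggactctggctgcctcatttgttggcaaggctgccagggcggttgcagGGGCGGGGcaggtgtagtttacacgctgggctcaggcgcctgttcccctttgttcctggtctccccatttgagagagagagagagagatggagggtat
Brd9 (chr13:73937561-73937860, + strand): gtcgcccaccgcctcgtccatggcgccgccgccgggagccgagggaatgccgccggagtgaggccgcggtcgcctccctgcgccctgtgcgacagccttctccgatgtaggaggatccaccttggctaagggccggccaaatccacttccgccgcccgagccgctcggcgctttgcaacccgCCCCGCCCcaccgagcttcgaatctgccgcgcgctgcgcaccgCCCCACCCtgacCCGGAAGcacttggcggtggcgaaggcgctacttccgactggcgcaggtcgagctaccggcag
Ino80 (chr2:119477638-119477937, - strand): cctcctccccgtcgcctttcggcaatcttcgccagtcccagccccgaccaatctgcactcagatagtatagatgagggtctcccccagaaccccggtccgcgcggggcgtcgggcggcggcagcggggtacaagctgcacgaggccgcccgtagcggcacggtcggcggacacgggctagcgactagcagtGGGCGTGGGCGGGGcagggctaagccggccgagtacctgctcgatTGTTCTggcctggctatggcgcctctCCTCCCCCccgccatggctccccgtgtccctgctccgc
Atrx (chrX:105929323-105929622, - strand): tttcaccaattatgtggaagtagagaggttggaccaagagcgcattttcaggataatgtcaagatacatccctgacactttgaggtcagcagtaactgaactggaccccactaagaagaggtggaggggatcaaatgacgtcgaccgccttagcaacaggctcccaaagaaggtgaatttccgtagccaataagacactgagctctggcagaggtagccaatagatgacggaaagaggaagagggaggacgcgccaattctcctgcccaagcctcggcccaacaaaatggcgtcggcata
The Pbrm1, Brd9 and Ino80 windows are rich in G and C (68%, 72% and 70% of bases) with 35, 40 and 32 CpG dinucleotides, and the Smarcd2 window holds 4 CpG dinucleotides in 55% GC and that of Atrx 11 in 50.3% GC. The Kruppel-like motif was matched in 27 of the 37 remodeller windows (73%) and in 49.5% of all 32851 windows of this length, and the ETS motif in 5 (13.5%) against 8.86%. AGATAA, bound by GATA factors, was found in 1 (2.7%) against 11.2%, and AGAACA, the half-site of the glucocorticoid receptor, in 7 (18.9%) against 19%. The windows differ in composition, with a median GC share of 65.7% for the remodellers and 52.7% for all, so these shares describe letters and not binding.

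**Figure D1:**
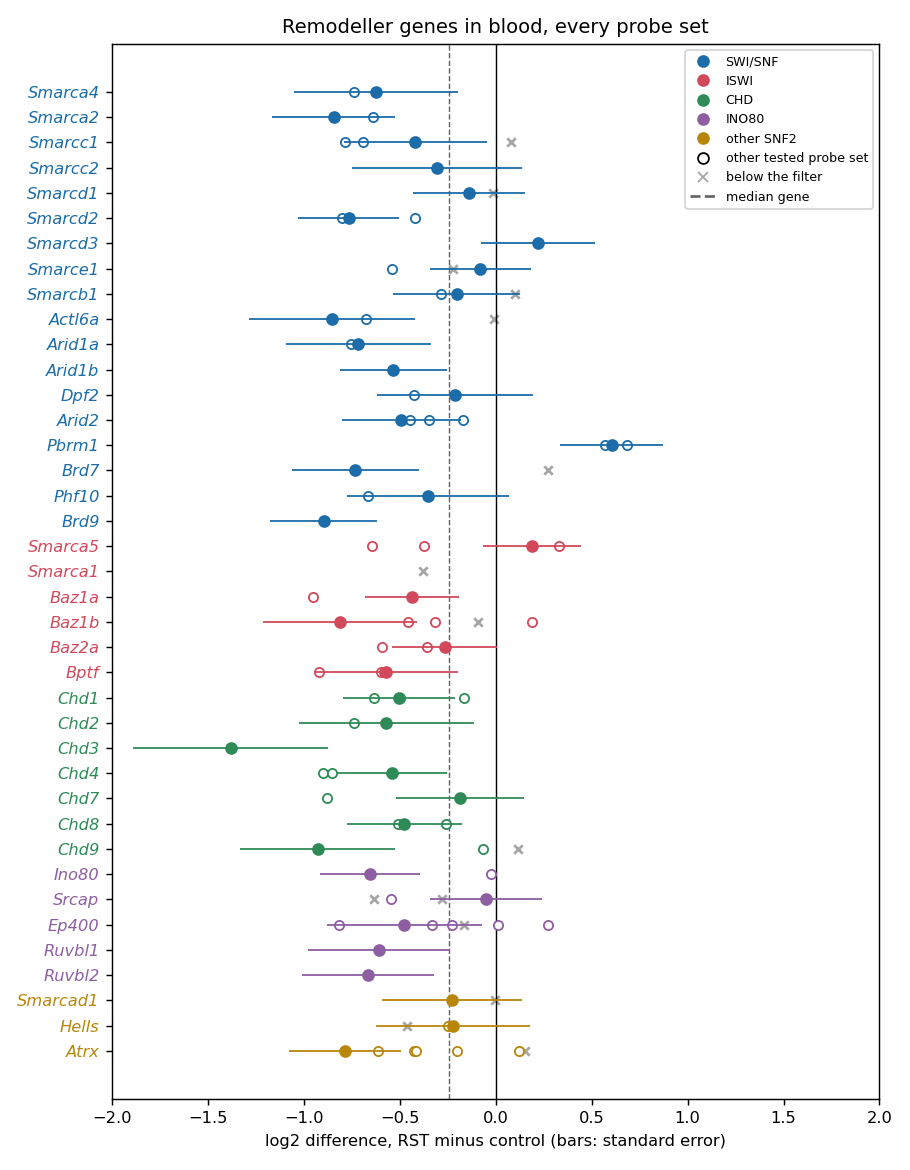
Log2 difference between RST and control mice (x axis, RST minus control) for every probe set of the 39 remodeller genes, colored by family. Filled points are the brightest probe set with its standard error, open points the other tested probe sets, crosses those below the filter, and the dashed line the median gene at -0.24. Most points lie left of 0, and the 3 points of Pbrm1 lie right of it.

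Most remodeller genes had a lower mean level in RST mice, and no single gene passed the test after adjustment. Testing required a level over the array's own median in 2 or more of a group's 4 mice, which 91 of the 106 probe sets and 38 of the 39 genes did. The exception was Smarca1, the second ISWI ATPase, whose only probe set gave 2.77, 2.93, 3.50 and 3.21 in control mice 1 to 4 and 2.75, 2.10, 3.13 and 2.90 in RST mice 1 to 4. Of the probe sets that passed, 5 did so through 1 group alone, among them the one that stands for Smarcd3, which passed through the RST mice. At its brightest probe set, which stands for a gene from here on, the mean was lower in RST mice for 35 of the 38 genes, against 67.6% of all 11762 genes tested. The higher means were those of Pbrm1, Smarcd3 and Smarca5. The median log2 difference, RST minus control, was -0.50 over the remodeller genes and -0.24 over all genes. The count of lower means varied with the setting. After quantile normalization it was 27 of 38, against 54% of all genes. With the hybridization controls as a covariate it was 24 of 38, against 63.8% of all genes. Without control mice 1 and 2 it was also 24 of 38, against 64.5%, so in these last settings the remodellers stood near the share of all genes.

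With limma's unadjusted p below 0.05 and a change of more than 1.5-fold, 8 remodeller genes were lower in RST mice (Smarca2, Smarcd2, Brd7, Brd9, Chd3, Chd9, Ino80 and Atrx), where 12.8% of all genes were. On the same terms 1 gene, Pbrm1, was higher, where 2.8% of all genes were. All 4 RST values lay below all 4 control values for 5 genes (Smarcd2, Brd9, Baz1a, Ino80 and Atrx), against 6.57% of all genes, and no remodeller gene had all RST values above the control values at its brightest probe set, against 2.37%. Over single probe sets 13 of 91 were lower on these terms, where 10.4% of all tested probe sets were, and 1 was higher, where 2.89% were. After Benjamini-Hochberg adjustment over all 25084 probe sets limma called 0% of them, and the smallest adjusted p of a remodeller was 0.32. At an unadjusted p under 0.05 alone, in either direction, there were 9 remodeller genes, where 16% of all genes passed, and 3419 of all probe sets (13.6%). The methods' t-test also gave 0 adjusted calls, and limma with a trended and robust prior gave 35 among all probe sets and 0 among remodellers. The share of lower calls moved with the scaling: of all genes 1509 were lower and 329 higher as deposited, against 876 and 634 after quantile normalization, where 3 remodeller genes were lower and 1 higher against 7.45% and 5.39% of all genes.

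The SWI/SNF ATPases are Smarca4 (BRG1) and Smarca2 (BRM), of which each complex holds 1. Smarca4 gave log2 levels of 6.96, 6.41, 5.35 and 5.28 in control mice 1 to 4 and 5.04, 6.22, 5.28 and 4.96 in RST mice 1 to 4, a difference of -0.62 (standard error 0.43, limma unadjusted p = 0.172). Only control mice 1 and 2 and RST mouse 2 stood above the rest, and the groups overlapped. Smarca2 gave 6.79, 6.81, 5.94 and 6.41 in controls against 5.55, 6.27, 5.68 and 5.07 in RST mice, a difference of -0.85 (standard error 0.32, limma unadjusted p = 0.023). RST mouse 2 lay inside the control range and RST mice 1, 3 and 4 below it. The balance of the ATPases, Smarca4 minus Smarca2 on the same array, averaged -0.49 ± 0.54 (SD, n = 4) in control and -0.27 ± 0.22 (SD, n = 4) in RST mice, and its values overlapped.

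Among the core subunits, which hold the complex together, only Smarcd2 (BAF60B) had groups that did not overlap at the brightest probe set. Known for its role in granulocyte maturation, it gave 9.32, 9.54, 9.15 and 8.75 in controls against 8.40, 8.64, 8.47 and 8.17 in RST mice, without overlap, a difference of -0.77 (standard error 0.26, 1.7-fold, exact permutation p = 0.029, the smallest that 4 against 4 mice can give, and adjusted p = 0.32 in limma). Groups without overlap always give this permutation p. A second probe set read 9.07, 9.21, 8.77 and 8.60 in control mice against 8.26, 8.38, 7.91 and 7.88 in RST mice, again without overlap. The third read 7.17, 7.46, 7.61 and 7.19 against 7.00, 7.14, 7.18 and 6.41, where RST mouse 3 reached just above control mouse 1. All 3 probe sets of Smarcd2 thus had lower RST means, with differences of -0.77, -0.80 and -0.42. Its paralogue Smarcd1 differed by -0.14 and Smarcd3 by 0.22, the latter at a probe set that passed the filter through the RST mice alone. Smarcd2 minus Smarcd1 on the same array was 5.51, 5.31, 5.78 and 5.27 in control mice and 4.37, 5.04, 5.04 and 4.92 in RST mice. These values did not overlap either, but Smarcd1 itself read from 3.26 to 4.23 and lay above the array's median in only 3 of the 4 control mice, so this largely repeats the values of Smarcd2. The other core subunits ranged from -0.85 for Actl6a, an actin-related protein, to -0.08 for Smarce1, and the scaffold pair Smarcc1 and Smarcc2 differed by -0.42 and -0.31, with overlap in each. One further probe set of Smarce1 did not overlap between the groups, with a difference of -0.54.

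**Figure D2:**
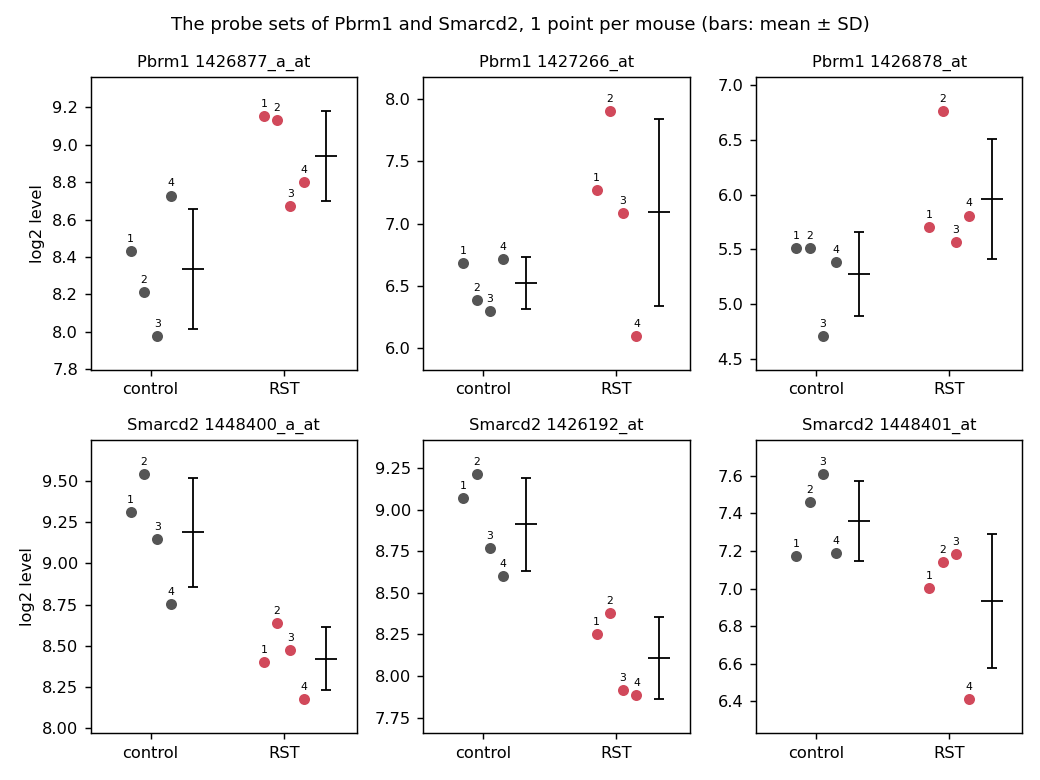
Log2 level (y axis) at each probe set of Pbrm1 (upper panels) and Smarcd2 (lower panels) in control and RST mice, 1 numbered point per mouse, with mean ± SD beside them. The y axes do not start at 0. The RST mean is higher at all 3 Pbrm1 probe sets and lower at all 3 Smarcd2 probe sets.

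The subunits that tell the forms of SWI/SNF apart differed in sign. Pbrm1 (BAF180), which carries the row of bromodomains of the PBAF form, gave 8.43, 8.21, 7.98 and 8.73 in control mice 1 to 4 and 9.15, 9.13, 8.67 and 8.80 in RST mice 1 to 4, a difference of 0.60 (standard error 0.27, 1.52-fold, limma unadjusted p = 0.044, adjusted p = 0.36). Control mouse 4 reached above RST mouse 3, and otherwise the RST values were higher. A dimmer probe set read 5.51, 5.51, 4.71 and 5.38 in controls against 5.71, 6.77, 5.56 and 5.81 in RST mice and did not overlap (difference 0.68, exact permutation p = 0.029). The third read 6.69, 6.39, 6.30 and 6.71 against 7.27, 7.90, 7.08 and 6.10, with RST mouse 4 below all controls (difference 0.57). Pbrm1 was the only remodeller gene with more than 1 tested probe set whose probe sets all had a higher mean in RST mice.

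Its PBAF partners had lower means. Brd7, a bromodomain protein, gave 6.83, 6.30, 6.18 and 6.01 in controls and 5.47, 5.97, 6.10 and 4.83 in RST mice, a difference of -0.73 (standard error 0.33, limma unadjusted p = 0.048), and RST mouse 3 lay within the control range. Arid2 differed by -0.49 and Phf10 by -0.35. Set against its partners on the same array, Pbrm1 was higher in RST mice by 1.10 relative to Arid2, 1.34 relative to Brd7, 0.96 relative to Phf10 and 1.23 relative to Smarca4, with overlap in each. Each gap is the difference of Pbrm1 less that of the partner, so it repeats values already given. Relative to the mean of the other 37 tested remodellers Pbrm1 stood at 1.78, 1.61, 1.91 and 2.66 in control mice and 3.32, 2.88, 2.65 and 3.50 in RST mice. Control mouse 4 came just above RST mouse 3, and the groups were apart but for that pair. Among the BAF-specific subunits Arid1a and Arid1b, which are alternatives in the same place, differed by -0.72 and -0.53, and Dpf2 by -0.21. Brd9, which marks the noncanonical BAF form, gave 7.47, 7.47, 6.90 and 7.18 in controls and 6.39, 6.31, 6.82 and 5.91 in RST mice without overlap, a difference of -0.90 (standard error 0.28, 1.86-fold, exact permutation p = 0.029, adjusted p = 0.32 in limma), and RST mouse 4 was the lowest.

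**Figure D3:**
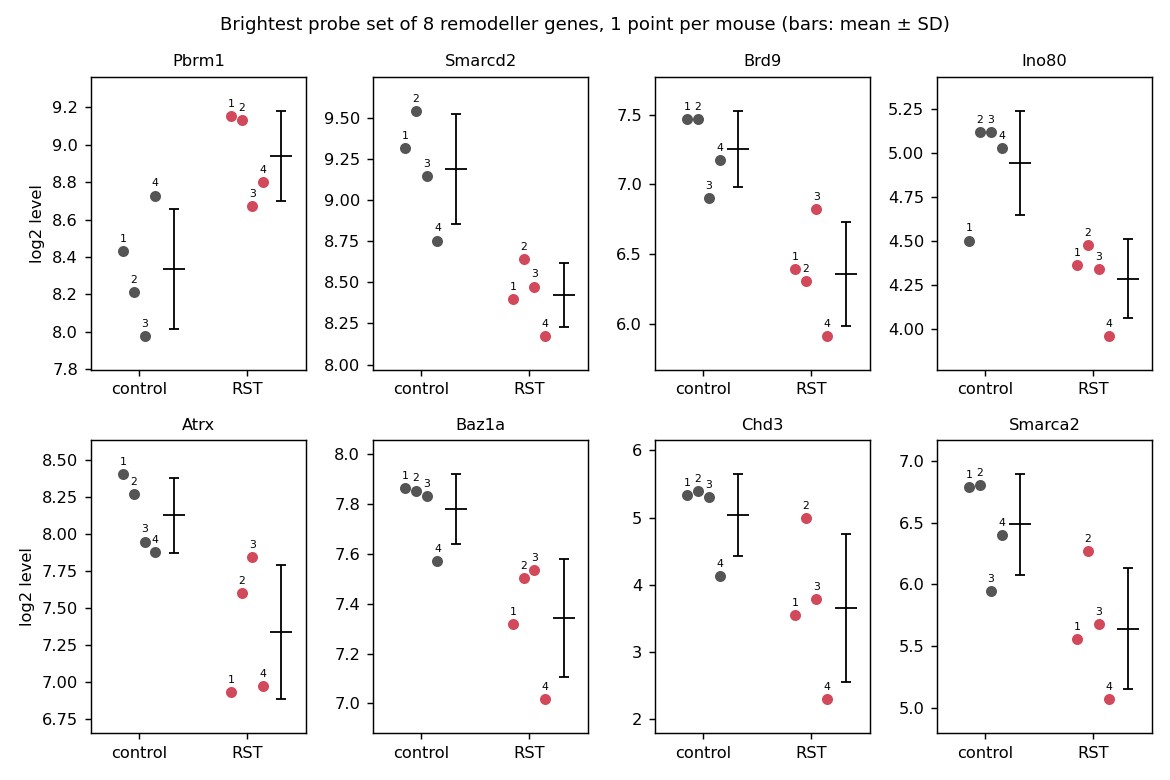
Log2 level (y axis) at the brightest probe set of 8 remodeller genes in control and RST mice, 1 numbered point per mouse, with mean ± SD beside them and y axes that do not start at 0. Smarcd2, Brd9, Ino80, Atrx and Baz1a do not overlap between the groups, while Chd3 and Smarca2 do through RST mouse 2 and Pbrm1 through control mouse 4.

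In the ISWI family, Smarca5 (SNF2H), the ATPase of the nucleosome-spacing complexes, had probe sets with differences of opposite sign. The brightest gave 7.93, 7.78, 7.44 and 7.46 in controls and 7.76, 7.55, 7.96 and 8.09 in RST mice, a difference of 0.19 with overlap. The other probe sets differed by -0.38, 0.33 and -0.64, so no direction can be given for the gene. The probe set at -0.64 read 3.89, 3.40, 3.76 and 4.18 against 3.77, 3.05, 3.11 and 2.71. The probe set at -0.38 read 7.51, 8.18, 7.70 and 7.53 against 7.63, 7.34, 7.50 and 6.94, and the probe set at 0.33 read 5.22, 5.01, 4.63 and 4.85 against 5.38, 5.44, 5.60 and 4.60. Each of them overlapped between the groups.

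Baz1a (ACF1), a partner of Smarca5, gave 7.86, 7.85, 7.83 and 7.57 in controls and 7.32, 7.50, 7.54 and 7.02 in RST mice. The groups did not overlap, but the difference was small at -0.44 (standard error 0.25, 1.35-fold, limma unadjusted p = 0.102), and a second probe set differed by -0.95. Baz1b (WSTF) differed by -0.81 at its brightest probe set, where it gave 7.82, 7.56, 7.08 and 6.14 against 6.09, 6.95, 6.62 and 5.70, with overlap. Its dimmer probe sets differed by -0.46, -0.32 and 0.19. Of these, the first read 6.36, 6.43, 5.44 and 5.30 in controls against 5.22, 6.40, 5.66 and 4.43 in RST mice, the next 4.61, 3.99, 4.35 and 5.06 against 3.98, 4.21, 4.40 and 4.15, and the last 4.37, 4.31, 4.23 and 4.88 against 4.72, 4.95, 4.34 and 4.54. Baz2a, the NoRC subunit that silences ribosomal DNA, differed by -0.27, and Bptf, the NURF subunit that reads methylated histone H3, by -0.57.

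All 7 CHD genes had lower means in RST mice, with a median difference of -0.54. Chd3, a NuRD ATPase, had the lowest difference of all the remodellers, at -1.38 (standard error 0.51, 2.61-fold, limma unadjusted p = 0.019). Control mice gave 5.33, 5.39, 5.30 and 4.13 and RST mice 3.55, 4.99, 3.79 and 2.30, and both groups were wide: control mouse 4 lay below RST mouse 2. Chd4, the more common NuRD ATPase, gave 7.33, 7.30, 6.50 and 7.02 against 6.60, 6.76, 6.57 and 6.05, a difference of -0.54 with overlap, and its other probe sets differed by -0.90 and -0.85.

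Chd9 gave 6.99, 6.52, 6.27 and 6.21 in controls and 5.96, 6.36, 5.59 and 4.37 in RST mice, a difference of -0.93 (standard error 0.40, limma unadjusted p = 0.04). RST mouse 4 was far below the others and RST mouse 2 inside the control range. A second, dim probe set of Chd9 differed by -0.07. Chd8, which binds beta-catenin, gave 8.35, 7.95, 7.42 and 7.91 against 6.84, 7.67, 7.62 and 7.59, a difference of -0.48 in which RST mouse 1 was the lowest of its group. Chd7, the gene of CHARGE syndrome, gave 7.67, 7.53, 6.91 and 7.29 against 7.01, 7.63, 7.63 and 6.39, a difference of -0.19 within the spread of either group. A dimmer probe set of Chd7 differed by -0.88 with overlap (limma unadjusted p = 0.013, adjusted p = 0.32), so its probe sets differed in size. Chd1, which travels with elongating RNA polymerase, gave 5.08, 5.71, 5.63 and 5.87 against 5.38, 5.31, 5.04 and 4.54, a difference of -0.50. A further probe set of Chd1 did not overlap, with a difference of -0.50. Chd2 gave 6.84, 6.28, 6.08 and 5.65 against 5.93, 6.38, 6.04 and 4.20, a difference of -0.57, and the value of RST mouse 4 lay far below the rest.

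Ino80, the ATPase of the complex of that name, gave 4.50, 5.12, 5.12 and 5.03 in controls and 4.36, 4.48, 4.34 and 3.96 in RST mice. RST mouse 2 came close to control mouse 1, but the groups did not overlap, with a difference of -0.66 (standard error 0.26, 1.58-fold, exact permutation p = 0.029, limma unadjusted p = 0.028). Its second probe set read 3.00, 4.19, 4.14 and 2.92 in controls against 3.31, 3.76, 3.60 and 3.49 in RST mice. There the difference was -0.03, so the dimmer probe set did not show what the brighter one did. Srcap, which deposits the histone variant H2A.Z, gave 4.04, 3.92, 3.31 and 3.76 against 3.96, 3.74, 3.99 and 3.12 and differed by -0.05, with RST values inside the control range but for RST mouse 4.

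Ep400, the ATPase of the TIP60 complex, gave 6.95, 6.89, 6.71 and 6.01 in controls and 6.17, 7.00, 6.44 and 5.03 in RST mice, a difference of -0.48 with overlap. Its 6 tested probe sets ranged from -0.82 to 0.27 and had 2 higher means, 1 of them at 0.01. The probe set at 0.27 read 4.37, 4.77, 4.28 and 4.20 against 5.04, 5.03, 4.01 and 4.61, and that at -0.82 read 6.67, 6.72, 6.03 and 5.98 against 5.81, 6.64, 5.88 and 3.79. At -0.82 RST mouse 4 was far the lowest, while at 0.27 RST mice 1 and 2 lay above all controls. The probe set at 0.01 read 6.34, 6.80, 5.65 and 6.74 against 6.71, 6.96, 6.61 and 5.30. Of the remaining probe sets of Ep400, one read 4.94, 4.93, 4.92 and 4.64 against 4.48, 4.95, 4.70 and 4.40, and the other 5.16, 5.23, 4.89 and 4.93 against 4.76, 4.65, 5.07 and 4.39, with differences of -0.23 and -0.33. Ruvbl1 and Ruvbl2, the AAA+ ATPases shared by these complexes, form 1 ring. Their differences were -0.61 and -0.67, with values of 6.38, 6.21, 5.03 and 5.46 against 5.17, 5.70, 5.30 and 4.47 for Ruvbl1 and 6.12, 6.01, 5.31 and 4.77 against 5.01, 5.22, 4.92 and 4.39 for Ruvbl2. Their difference on the same array was 0.22 ± 0.40 (SD, n = 4) in control and 0.27 ± 0.19 (SD, n = 4) in RST mice.

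Of the SNF2 genes outside these families, Atrx, which places histone H3.3 in heterochromatin, gave 8.40, 8.27, 7.95 and 7.87 in controls and 6.93, 7.60, 7.84 and 6.97 in RST mice without overlap. The difference was -0.79 (standard error 0.29, 1.73-fold, exact permutation p = 0.029, adjusted p = 0.33 in limma). A second probe set read 7.03, 6.39, 6.44 and 6.35 against 5.89, 5.59, 6.31 and 5.98 and did not overlap either, with a difference of -0.61. The other tested probe sets of Atrx differed by -0.43, -0.42, -0.20 and 0.12. The last of these read 5.05, 4.84, 5.86 and 5.86 in controls against 5.79, 5.28, 5.28 and 5.73 in RST mice, and here control mice 1 and 2 were the low ones. That at -0.20 read 7.21, 7.42, 6.16 and 6.98 against 6.46, 6.89, 6.68 and 6.92. Those at -0.43 and -0.42 read 7.05, 7.18, 6.05 and 6.63 against 6.24, 6.77, 6.69 and 5.50, and 4.86, 4.87, 4.40 and 4.55 against 4.57, 4.59, 4.44 and 3.42, with overlap in each. Hells (LSH), a helper of DNA methylation that is high in dividing cells, gave 4.64, 4.52, 6.11 and 6.16 against 5.24, 5.21, 5.29 and 4.81, a difference of -0.22. Its controls fell into a low pair, mice 1 and 2, and a high pair, mice 3 and 4, with all RST mice between them. Smarcad1 gave 5.757, 6.271, 4.597 and 5.071 against 5.004, 4.984, 5.601 and 5.196, a difference of -0.23.

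Counted by gene, most probe sets had the same sign. Of the 28 genes with at least 2 tested probe sets, 23 had a lower RST mean at every probe set and 1, Pbrm1, a higher one at every probe set. The remaining 4 (Smarca5, Baz1b, Ep400 and Atrx) were mixed, and 10 further genes had 1 tested probe set. Over all 91 tested probe sets, 81 had a lower and 10 a higher mean. The data leaned lower as a whole, with a lower mean in 67.6% of all genes and a median difference of -0.20 over all tested probe sets. How often the probe sets of other genes shared a sign was not counted. The filter favours a lower mean for a probe set that passes it through the controls alone, as 1 each of Actl6a, Phf10, Smarca5 and Srcap did. It favours a higher mean for one that passes through the RST mice alone, as that of Smarcd3 did. Over the 86 probe sets that passed in both groups 77 had a lower and 9 a higher mean, and of the 25 genes with at least 2 of these 20 were lower at every one, 1 was higher at every one and 4 were mixed.

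SWI/SNF and the other families had median differences close to each other with all 8 mice, and the gap between them varied with the processing and with single mice. The median difference of the SWI/SNF genes was -0.46 and that of the 20 tested genes of the other families -0.52, a gap of 0.066 against 0.10, the pooled SD between mice of the same contrast taken as a mean score. Without Pbrm1 the gap was 0.030, and with the mean over a gene's probe sets in place of the brightest one it was -0.079. It passed 0.10 after quantile normalization (0.11), without control mouse 2 (0.14), RST mouse 1 (0.10) or RST mouse 4 (0.15), without control mice 1 and 2 (0.15, and 0.17 with RST mouse 4 left out too) and with the hybridization controls as a covariate (0.22). Without control mouse 3 or RST mouse 3 it was 0.0082 and 0.011. By family the median was -0.44 for ISWI, -0.61 for INO80 and -0.23 for the 3 other SNF2 genes, which stood at 0.02 after quantile normalization. That scaling kept the sign of the other families, at -0.14 for SWI/SNF, -0.23 for ISWI, -0.30 for CHD and -0.29 for INO80. The score of a family in a mouse, its mean log2 deviation from the gene means less that of the array's median gene, overlapped between control and RST mice in every family. For SWI/SNF it was 0.32, 0.23, -0.18 and -0.09 in control mice 1 to 4 and -0.17, 0.10, -0.12 and -0.24 in RST mice 1 to 4, so control mice 1 and 2 were high and control mice 3 and 4 among the RST values. For the CHD family it was 0.38, 0.21, 0.10 and 0.08 against -0.25, 0.13, -0.17 and -0.63, with RST mouse 2 among the controls.

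**Figure D4:**
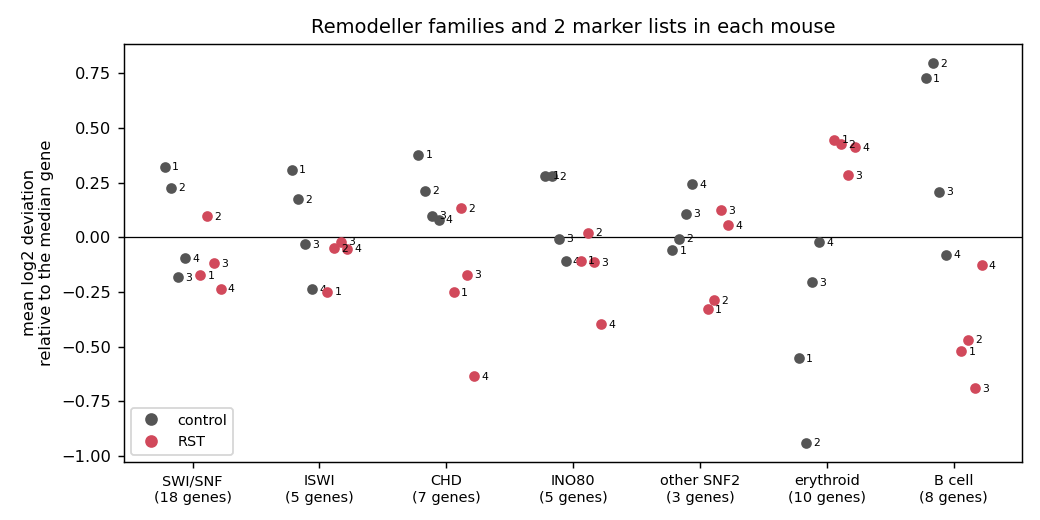
Mean log2 deviation of each remodeller family, and of erythroid and B cell markers, less that of the median gene on the array (y axis) in the 4 control and 4 RST mice, with mouse numbers beside the points. The groups overlap in every remodeller family and are apart for the erythroid and B cell markers.

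Markers of blood cell types were compared in the same groups. All 8 tested B cell markers of 10 had lower means in RST mice (median difference -1.10, and a mean level from 8.20 to 9.31 in control and from 7.58 to 7.90 in RST mice). The 8 tested T cell markers of 10 also had lower means (median -0.95, level 7.05 to 7.78 in control and 6.14 to 7.12 in RST mice), as did the 6 leukocyte-wide markers (median -0.62, level 9.90 to 10.61 in control and 9.52 to 9.99 in RST mice). Lower means were found in 6 of 7 tested NK cell markers (median -0.69, level 6.99 to 7.67 in control and 6.35 to 7.22 in RST mice), in 5 of 8 neutrophil markers (median -0.54, level 7.22 to 9.08 in control and 6.62 to 8.40 in RST mice) and in 6 of 7 monocyte markers (median -0.61, level 7.69 to 8.96 in control and 7.14 to 8.22 in RST mice). All 10 tested erythroid markers of 16 had higher means (median 0.52, level 9.55 to 10.23 in control and 10.14 to 10.77 in RST mice), and 6 of 7 platelet markers did (median 0.22, level 9.78 to 10.08 in control and 9.80 to 10.31 in RST mice), a median that was 0.01 after scaling to the control probe sets. Control mice 1 and 2, in which SWI/SNF was high, had the highest B cell scores (0.73 and 0.80) and the lowest erythroid scores (-0.55 and -0.94). Their neutrophil scores were 1.18 and -0.71. RST mouse 2, next highest for SWI/SNF (0.10), had a B cell score of -0.47 and an erythroid score of 0.43. Control mouse 3, low for SWI/SNF (-0.18), had a B cell score of 0.21. RST mouse 4, the lowest for SWI/SNF (-0.24), had the highest B cell score of the RST mice (-0.13). Its score was 0.11 for the leukocyte-wide markers and 0.41 for the erythroid ones. Pax5 of B cells and Ly6g of neutrophils were not among the markers tested. The part of cell composition in the remodeller differences was not tested.

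**Figure D5:**
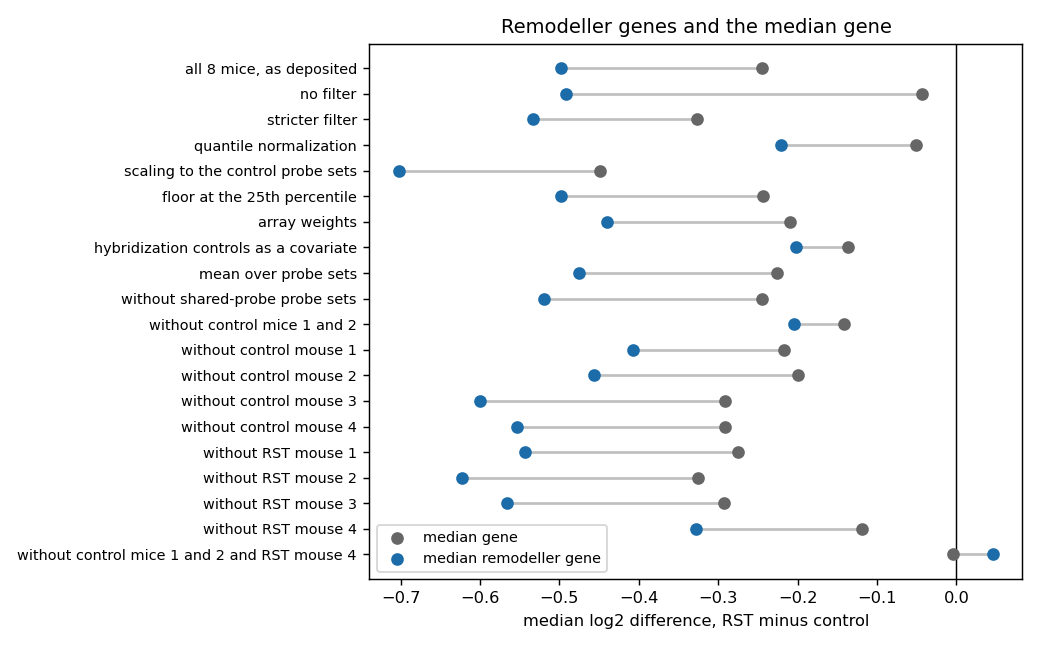
Median log2 difference between RST and control mice (x axis) over the remodeller genes and over all tested genes, with the deposited values and under alternative processings or with mice left out (y axis). The median remodeller lies below the median gene in every line but the last, where control mice 1 and 2 and RST mouse 4 are left out and it is at 0.046.

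How far the lower means rest on single mice was measured by leaving mice out. Without control mice 1 and 2 the number of lower calls was 2 (Ino80 and Hells), where 2.32% of all genes were called lower, and the median remodeller lay at -0.20 against -0.14 for the median gene. With RST mouse 4 left out too, a choice made after the data were seen, 18 of 38 genes had a lower mean and the median difference was 0.046. The same 2 genes were then called lower, where 2.28% of all genes were. Groups of so few mice separate easily. Here 7 remodeller genes had RST values all below the controls, where 11.8% of all genes did. The 3 genes Smarcc2, Phf10 and Smarca5 had them all above. The share of all genes in that direction is not given here, so this number says nothing particular to the remodellers. Without RST mouse 4 alone 3 genes were called lower (Smarcd2, Brd9 and Atrx), where 6.78% of all genes were. Without control mouse 1 the number was 4 and without control mouse 2 also 4, where 5.64% and 5.88% of all genes were called lower, and without RST mouse 1 it was 5, where 8.83% were. It ran from 8 to 11 in the remaining fits of this kind, where 12% to 20.6% of all genes were. Without control mouse 3, control mouse 4 and RST mouse 2 the genes without overlap and lower in RST numbered 9, 10 and 9, and the share over all genes was also higher, at 12.1%, 12.2% and 16.6% against 6.57% with all mice.

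Some single genes kept their sign. Another filter, prior or test, or the replicate block, leaves the difference at a given probe set as it is, so these settings could not change a sign. Over the 22 alternative settings Pbrm1 had a higher mean in all of them, from 0.40 to 0.73, and with control mice 1 and 2 and RST mouse 4 left out it stood at 0.63. Its unadjusted call was lost in 5 of the 8 fits that left out 1 mouse. Smarcd2 ranged from -0.97 to -0.45, Brd9 from -1.10 to -0.53, Ino80 from -0.86 to -0.34, Atrx from -0.99 to -0.39 and Chd3 from -1.83 to -0.61. Smarcd2 and Brd9 were called lower in 19 of the 22 settings, Chd3 in 17, Atrx in 16 and Ino80 in 14. The settings reuse the same 8 arrays, and how often other genes kept a sign or a call was not counted. With the mean over probe sets Ino80, Atrx and Chd9 were no longer called lower, while Actl6a, Baz1a and Chd4 were. In that setting 11.9% of all genes were called lower. The genes without overlap and lower were then Smarcd2, Brd9, Chd1 and Chd8, where 6.16% of all genes were. In contrast, Smarca4 stood at 0.20 and Smarcc2 at 0.64 without control mice 1 and 2 and RST mouse 4.

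The other subunits of these complexes, a list of 64 genes outside the remodeller set, were counted in the same way. Of 56 tested, 52 had a lower and 4 a higher mean (median difference -0.47), 14 were lower and 1 higher on the unadjusted terms used above, and 0 passed the adjustment in limma. Over all genes 67.6% had a lower mean, 12.8% were lower and 2.8% higher on those terms. For SWI/SNF the smallest p values belonged to Ss18l1 (-0.94) and Ss18 (-0.71), subunits of BAF. For ISWI they belonged to Pole3, a histone-fold subunit of CHRAC (0.69), and Hmgxb4 (-0.57). Pole3 was read from a probe set with probes shared with other transcripts, and without such probe sets the 5 tested genes of this list all had a lower mean. The NuRD subunits Mta3 (0.90) and Cdk2ap1 (-0.72) led the CHD list, and all RST values of Mta3 lay above all control values at its brightest probe set. That probe set and the one of Cdk2ap1 also hold shared probes. Over those 22 alternatives Mta3 ranged from 0.13, without probe sets of this kind, to 1.06. Brd8 (-1.12) and Yeats4 (-1.04), both of the TIP60 complex, led the INO80 list, in which 22 of 23 tested genes had a lower mean. Btaf1 (-0.73), which takes TBP off DNA, and Rad54l (-0.81), of recombination repair, led the remaining SNF2 ATPases.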

How the data were processed

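RNA from whole blood of 4 control and 4 RST mice (30 ng each) had been amplified, biotin-labeled and hybridized to 1 Affymetrix mouse genome GeneChip per mouse. The values deposited by the authors are log2 levels per probe set, background-corrected, normalized between arrays and summarized. RMA, Partek and Expression Console 1.2.0.20 (Affymetrix) are listed in the submitters' processing notes, while the paper's methods describe GSRMA, so which variant made the table is unknown. Presence calls, scanner values, slides and scan dates were not used here, and no block on slide or date was run. Amplification and normalization between arrays make the levels relative, but the deposited arrays were not level, with lower values on that of RST mouse 4.

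Of 45101 probe sets, 64 controls were left out. The platform annotation gave 1 gene for 34945 probe sets (of which 34754 symbols were brought up to date by Entrez identifier, using RefSeq genes of GRCm38.p6), several for 932, which were not named, and none for 9211. The groups were compared in R 4.3.3 by limma 3.58.1 (lmFit, eBayes, Benjamini-Hochberg adjustment over 25084 probe sets), with thresholds of 0.05 and 1.5-fold. The paper's presence filter was replaced by one on the array median. A gene was represented by its brightest tested probe set. Levels are given per probe set and are not compared between probe sets. Single values were compared by exact two-sided permutation of 4 against 4 mice, whose smallest p is 0.029. Groups without overlap always give that p, so it adds nothing to the lack of overlap. For the genes past the unadjusted thresholds whose groups overlapped, the permutation p was 0.057 (Smarca2, Brd7, Chd3 and Pbrm1) or 0.086 (Chd9).

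Values in every mouse are given for the ATPases, for members without overlap or past the unadjusted thresholds, and for members whose probe sets disagreed. The 2 smallest p values are named for each list of other subunits. The members and lists were chosen with earlier results of these data known. Alternatives changed the filter (none, or the top 40% by mean level), the test and its prior, array weights, the normalization, a replicate block, a covariate, a floor for low values (the 25th percentile), the choice of probe set and the mice included. The code of the fit was run on simulated data. Those values were drawn independently for each probe set, without shifts of whole arrays, so the run does not show how the fit behaves on these arrays. Promoters were searched in Python 3.11.15 and plots drawn with matplotlib 3.10.9.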

Additional observations from a re-analysis of the deposited data

Results flagged for a closer look

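Of 42 groups of 4 mice looked at (21 remodeller genes in control and in RST mice), 4 had a mouse far from the other 3 of its group, where chance gives about 1 group in 20. Control mouse 4 was low for Baz1a (7.57) and for Chd3 (4.13). RST mouse 1 was low for Chd8 (6.84), and control mouse 1 was low for Ino80 (4.50), where it lay just above the highest RST mouse.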

How the results depend on the processing

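No remodeller passed the adjusted threshold under any of the 22 alternatives, and the lower calls numbered from 2 to 15. They numbered 3 after quantile normalization, 15 after scaling to the control probe sets, 14 with array weights and 5 with the pooled t-test. With the hybridization controls as a covariate they numbered 3, and without control mice 1 and 2 they numbered 2, with or without RST mouse 4. The share of all genes called lower was 12.8% as deposited and varied too: in the same order it was 7.45%, 21.8%, 19%, 8.16%, 5.27%, and 2.28% with and 2.32% without leaving out RST mouse 4. Leaving out 1 mouse at a time gave 3 to 11 lower calls, 0 to 1 higher calls, 5 to 10 genes without overlap and lower, and 0 to 1 without overlap and higher. Over all genes 5.64% to 20.6% were then called lower and 1.69% to 5.19% higher, and 7.15% to 16.6% were without overlap and lower. The share without overlap and higher is not given for these fits. The 1 higher call (Pbrm1) became 0 after scaling to the control probe sets, with array weights, with a replicate block, with the mean over probe sets, without control mice 1 and 2, and without those and RST mouse 4. Genes without overlap and higher numbered 1 and 3 in the last 2 of these, in that order. Their share over all genes is not given here, so these numbers say nothing particular to the remodellers. The median of the remodellers relative to the median gene, -0.25, was -0.45 with no filter, -0.065 with the hybridization covariate, -0.063 without control mice 1 and 2 and 0.050 without those and RST mouse 4. The SWI/SNF minus other families gap was 0.22 with the hybridization covariate and -0.079 with the mean over probe sets. In each case the cause was not tested, except that fits with fewer mice have fewer degrees of freedom. The setting without control mice 1 and 2 and RST mouse 4 was chosen after seeing the data, as was the one without Pbrm1.

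Deviations of same-numbered mice correlated at -0.24, 0.42, 0.046 and 0.20, and those of differently numbered mice at -0.54 to 0.52. Whether same-numbered mice were handled together cannot be told from so few values, and the numbers serve here only as names. With a replicate block 12 genes were called lower and 0 higher, where 16.7% and 2.75% of all genes were, and the genes without overlap, the adjusted count and the medians were as in the fit without it.

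Some log2 differences changed sign. After quantile normalization Smarcc2 stood at 0.029, Smarce1 at 0.086, Smarcb1 at 0.13, Dpf2 at 0.10, Chd7 at 0.094, Srcap at 0.029, Smarcad1 at 0.14 and Hells at 0.025. With the hybridization covariate Smarca4 stood at 0.029, Smarcc2 at 0.36, Smarcd1 at 0.091, Smarce1 at 0.12, Smarcb1 at 0.071, Dpf2 at 0.046, Phf10 at 0.26, Baz2a at 0.019, Chd7 at 0.088, Srcap at 0.13 and Smarcad1 at 0.19. Without control mice 1 and 2 the values were Smarca4 0.063, Smarcc2 0.37, Smarcd1 0.16, Smarce1 0.17, Smarcb1 0.11, Phf10 0.33, Baz2a 0.064, Chd7 0.061, Srcap 0.17, Ep400 0.20 and Smarcad1 0.36. With RST mouse 4 left out as well they were Smarca4 0.20, Smarcc1 0.22, Smarcc2 0.64, Smarcd1 0.26, Smarce1 0.15, Smarcb1 0.14, Dpf2 0.36, Phf10 0.62, Baz2a 0.077, Bptf 0.12, Chd2 0.26, Chd7 0.32, Srcap 0.36, Ep400 0.57, Ruvbl1 0.15, Ruvbl2 0.014 and Smarcad1 0.36. Array weights gave Srcap 0.022 and Hells 0.099, scaling to the control probe sets gave Smarca5 -0.016, and the mean over probe sets gave Smarca5 -0.13. Leaving out 1 mouse at a time, the range crossed 0 for Smarcd1 (-0.29 to 0.029), Smarce1 (-0.19 to 0.068), Smarcb1 (-0.40 to 0.036), Dpf2 (-0.44 to 0.19), Chd7 (-0.34 to 0.071), Srcap (-0.20 to 0.14), Smarcad1 (-0.50 to 0.055) and Hells (-0.50 to 0.043). The other 768 of the 831 values of single genes under alternatives kept their sign and their side of the adjusted threshold. Many of these could not change sign, because another filter, prior or test, or the replicate block, keeps the difference at a given probe set. With 8 arrays the number of mice limits the precision.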

Other observations

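Within the INO80, SRCAP and TIP60 list, 6 of the 23 tested genes had RST values all below the control values, where 6.57% of all genes did, among them Nfrkb (-0.98) and Actr8 (-0.96), both INO80 subunits, and Ing3 (-0.83) and Meaf6 (-0.71), chromatin readers and scaffolds of acetyltransferase complexes. The choice of these 4 genes followed their values, and limma gave each an adjusted p of 0.32 or more. Rbbp4, a histone chaperone shared by NuRD and other complexes, had a difference of 0.30, while its paralogue Rbbp7 had one of -0.61. The probe sets of Ing3 and Rbbp4 hold probes shared with other transcripts.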
